A study of Homo sapiens with 18 samples.

Results

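The transcriptional response of HEK293 cells to flagellin of the probiotic Escherichia coli strain Nissle (EcN) was examined at 120 min against mock-treated cells of the same time. The comparison took the 3 arrays titled EcN and the 3 titled mock control at the 120 min time point, 6 of the 18 arrays of the study. Of 53617 rows of the deposited table, 23871 carried exactly 1 gene symbol, and 16111 genes lay above the median of an array often enough to be tested. The study also held EcN arrays and mock arrays at 60 min, and arrays of cells given Salmonella Typhimurium SL1344 (ST) flagellin at both times, again with 3 arrays per group.

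HEK293 is a human embryonic kidney cell line, and every group here, mock included, overexpressed the murine TLR5 receptor. The cells of all groups had been grown in SILAC medium, whose lysine and arginine are isotope-labelled as heavy, medium or light, and were used at passage 7. The EcN group received isolated flagellin in an amount matched to a multiplicity of infection of 10. From each culture 100 ng of total RNA was labelled for an Affymetrix Human Gene 2.1 ST array. The sources used here do not give which array carried which amino acid label, how the mock treatment was made up, or whether the replicates lettered A, B and C were separate cultures. The p-values therefore measure the spread between these arrays, and an effect of the amino acid label cannot be told apart from one of flagellin. The human TLR5 row, which the murine transgene need not hybridise to, read log2 3.67, 4.18 and 4.10 on mock A, B and C and 3.78, 4.05 and 3.53 on EcN A, B and C, and so gives no check of the transgene.

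TLR5 is the surface receptor for flagellin. Through the adaptor MyD88 it activates NF-kB and the MAP kinases, which induce immediate-early transcription factors, chemokines such as CXCL8, and inhibitors such as NFKBIA and TNFAIP3 that end the response. Interferon-stimulated genes form another antimicrobial programme, switched on by interferon receptors and by RNA or DNA sensors through STAT and IRF factors.

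Promoter sequences of genes from these programmes are shown because the arrays separated in different ways for each of them. The sequences come from RefSeq (GRCh38.p14) and are part of the 250 bases before the start site, written 5′ to 3′ on the strand of the gene, with the motif in capitals. The interferon response element core was searched as GAAANNGAA and the NF-kB site as GGNNTTTCC, each on both strands, and the serum response CArG box by its usual consensus. In ISG15 the capitals cover 3 overlapping matches. For RSAD2, which has several starts, the first start with a match is shown. For IFI44L only the match nearest the start was kept, so the printed stretch does not show whether others lie upstream.

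Interferon-stimulated genes are shown by ISG15 (chr1:1013354-1013434, plus strand), IFI44L (chr1:78620345-78620413, plus strand) and RSAD2 (chr2:6865776-6865844, plus strand).
ISG15: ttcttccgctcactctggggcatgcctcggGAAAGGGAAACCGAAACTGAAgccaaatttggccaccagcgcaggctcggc
IFI44L: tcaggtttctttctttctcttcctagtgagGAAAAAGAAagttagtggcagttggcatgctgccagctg
RSAD2: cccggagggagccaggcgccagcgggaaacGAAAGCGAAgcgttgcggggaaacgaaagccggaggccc
NF-kB targets are shown by NFKBIA (chr14:35404792-35404999, minus strand), TNFAIP3 (chr6:137867162-137867242, plus strand) and CXCL8 (chr4:73740448-73740516, plus strand).
NFKBIA: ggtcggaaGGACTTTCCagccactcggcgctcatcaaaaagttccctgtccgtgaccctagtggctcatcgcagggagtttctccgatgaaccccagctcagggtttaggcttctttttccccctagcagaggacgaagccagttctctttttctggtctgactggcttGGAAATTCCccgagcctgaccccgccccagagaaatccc
TNFAIP3: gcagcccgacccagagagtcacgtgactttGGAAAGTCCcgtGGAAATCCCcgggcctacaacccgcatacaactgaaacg
CXCL8: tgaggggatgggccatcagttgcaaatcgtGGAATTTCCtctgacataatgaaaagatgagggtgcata
The CArG box is shown in the immediate-early gene EGR1 (chr5:138465344-138465435, plus strand) and in INAFM2 (chr15:40323561-40323630, plus strand), the gene with the smallest p in the comparison.
EGR1: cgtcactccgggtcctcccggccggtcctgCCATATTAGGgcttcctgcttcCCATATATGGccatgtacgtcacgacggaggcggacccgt
INAFM2: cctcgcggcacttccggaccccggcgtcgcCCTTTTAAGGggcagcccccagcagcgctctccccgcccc

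The element core was found before the start of 19 of 27 interferon-stimulated genes that were measured and had a sequence, and in 6.88% of the 35116 windows of all genes. The NF-kB site was found in 12 of 18 NF-kB subunits and feedback inhibitors and in 5.48% of all windows. The CArG box was found in 2 of 23 immediate-early genes and in 1.16% of all windows. A gene can have several windows, so its chance of a match is larger than that of a window. Of the 10 genes that passed the test below, 8 had a sequence, and among these the only match to any of the motifs was the CArG box of INAFM2. None is shown for RRS1 and RNA5SP496. A match describes letters, and no binding was measured.

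The arrays of the mock group differed among themselves before any comparison was made. Over all genes tested, the median absolute log2 difference between a pair of mock 120 min arrays ran from 0.201 to 0.244, whereas pairs within the other 5 groups lay between 0.137 and 0.184. Mock C lay nearer to the EcN arrays, at 0.156 from EcN A, 0.173 from EcN B and 0.175 from EcN C, than to mock A, at 0.244, or mock B, at 0.201. Mock C lay nearer still to the EcN arrays of the earlier time point, at 0.136, 0.144 and 0.150 from A, B and C. From the mock arrays of that time it lay 0.211 to 0.242 away. Mock A lay nearest to those earlier mock arrays, at 0.1525 to 0.1782. Against mock B and C, mock A was high in NF-kB transcripts and low in interferon-stimulated ones, as given below. Fold changes, calls and list medians were therefore computed with all arrays and also without mock A or mock C, while counts of separate groups within lists and by gene length use all arrays.

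**Figure D1:**
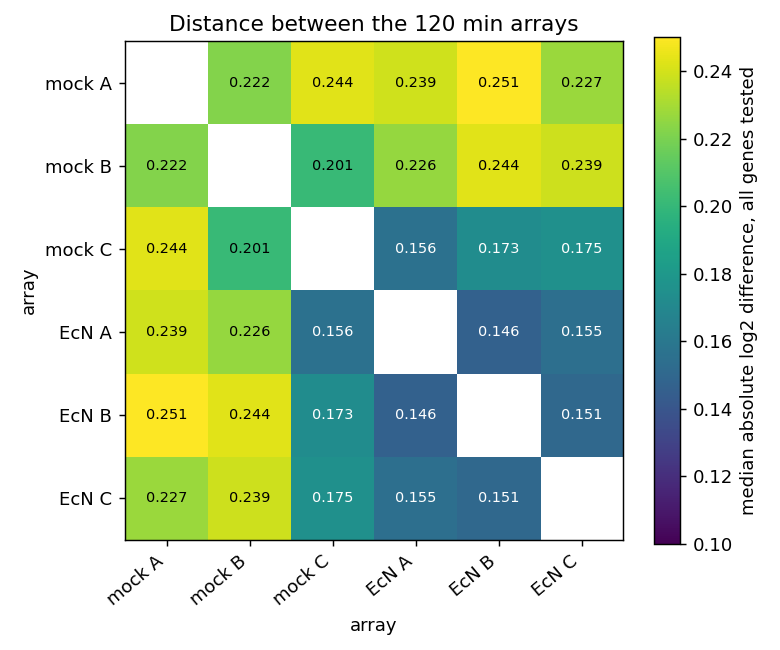
Median absolute log2 difference between each pair of the 6 arrays at 120 min over 16111 genes, with rows and columns for the arrays and colour for the distance in log2 units. The EcN arrays lie within 0.155 of each other, and mock C is closer to them (0.156 to 0.175) than to mock A (0.244) or mock B (0.201).

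Of 18 HEK293 and embryonic kidney markers, 16 were measured, and their mean lay between log2 6.21 and 6.50 on the 6 arrays. The members named next lay above that mean and do not stand for the whole list. The mean log2 level of the neurofilament gene NEFL was 10.29 in mock and 10.36 in EcN, that of the adhesion gene CDH2 8.67 and 8.53, and that of the transcription factor GATA3 8.71 and 8.12. Of 15 leukocyte markers, 14 were on the array and 7 passed the filter on low values, with PTPRC and CD3E among those that did not, and the mean of the 7 lay between log2 3.90 and 4.06 on the 6 arrays. The 6 fibroblast and 8 intestinal epithelium markers that were measured had means of 4.75 to 4.96 and 4.74 to 4.86. Single members of these lists were high in both groups, such as the lysosomal gene CD68 at 9.33 and 9.30 and the stem cell receptor gene LGR5 at 8.77 and 8.27. The list means overlapped between the groups, and their part in the results was not tested.

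Between EcN flagellin and mock at 120 min, 10 genes passed the test (limma, Benjamini-Hochberg adjusted p under 0.05), which is 0.0621% of the 16111 genes tested. Of these, 4 rose and 6 fell. The 4 that rose take part in ribosome assembly, pyrimidine synthesis, protein entry into the endoplasmic reticulum and ubiquitin ligation, and none of them is in the NF-kB or interferon lists. At an unadjusted p under 0.05, 1327 genes (8.24%) were higher and 1334 (8.28%) lower. All 3 EcN arrays lay above all 3 mock arrays for 1373 genes (8.52%) and below them for 1468 (9.11%). With 3 arrays against 3, an exact permutation test of one gene cannot give a two-sided p below 0.1, so the calls rest on the spread shared by the 6 groups. In simulated data of this size the test recovered 48.4% of genes changed 1.5-fold and 81.6% of those changed 2-fold. The simulated arrays were independent, with the same spread in every group. The mock arrays at 120 min differed more than that, so these shares can be too high for this comparison.

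RRS1 (transcript cluster 17069545), a nucleolar factor needed to build the large ribosomal subunit, read 7.54, 6.51 and 7.47 on mock A, B and C and 8.29, 8.43 and 8.28 on EcN A, B and C in log2 units. The EcN arrays lay close together, all above the mock arrays, and mock B was the lowest of the group. RRS1 rose by a log2 fold change of 1.16 ± 0.20 (SE of the fit of all 6 groups, 3 arrays per group), or 2.23-fold (limma, adjusted p = 0.046). Each SE given here uses the spread shared by the groups, so it can be too small where the mock arrays varied more.

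UMPS (transcript cluster 16944894) encodes the enzyme that makes uridine monophosphate at the end of de novo pyrimidine synthesis. It read 7.42, 6.99 and 7.53 in mock and 7.99, 8.12 and 8.16 in EcN, and rose by 0.77 ± 0.12 (limma, adjusted p = 0.034). Its groups did not overlap, and again mock B was the lowest array. DHODH, the enzyme one step before it, was not called: it read 5.99, 5.56 and 6.48 in mock and 6.47, 6.57 and 6.34 in EcN, with mock C inside the EcN range. Of 28 measured genes of nucleotide synthesis, UMPS was the only one called, and the median log2 fold change of the list was 0.04 against 0.00 over all genes.

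RRBP1 (transcript cluster 16917468), a ribosome-binding protein of the rough endoplasmic reticulum, read 5.78, 5.35 and 6.04 in mock and 6.59, 6.75 and 6.66 in EcN. It rose by 0.94 ± 0.16, or 1.92-fold (limma, adjusted p = 0.042). FBXO45 (transcript cluster 16949980), an F-box protein of a ubiquitin ligase, read 5.31, 5.42 and 5.82 in mock and 6.32, 6.35 and 6.29 in EcN, and rose by 0.81 ± 0.13 (limma, adjusted p = 0.036). For both genes mock C was the mock array nearest to EcN, and mock B was the lowest array of RRBP1. MYCBP2, the partner with which FBXO45 forms its ligase, was not called: it read 6.82, 6.83 and 7.14 in mock and 7.29, 7.58 and 7.40 in EcN, a difference of 0.49 ± 0.13 (limma, adjusted p = 0.095).

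Among the genes that fell, INAFM2 (transcript cluster 16799492) had the smallest p. It read 6.46, 6.49 and 6.25 in mock and 5.54, 5.66 and 5.63 in EcN, and fell by 0.79 ± 0.11 on the log2 scale (limma, adjusted p = 0.027). RARA (transcript cluster 16834071), the retinoic acid receptor alpha, read 7.18, 7.17 and 7.04 in mock and 6.48, 6.04 and 6.55 in EcN, and fell by 0.77 ± 0.13 (limma, adjusted p = 0.047). The mock arrays of RARA were close together, and EcN B was the lowest array. No other of the 19 measured genes of retinoic acid reception and metabolism was called.

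RNF138 (transcript cluster 16851810), a ubiquitin ligase that acts in DNA break repair, read 7.20, 7.11 and 6.80 in mock and 6.23, 5.98 and 6.05 in EcN, and fell by 0.95 ± 0.15 (limma, adjusted p = 0.034). ENPP5 (transcript cluster 17019689), a membrane protein of the nucleotide pyrophosphatase and phosphodiesterase family, read 4.68, 5.21 and 5.00 in mock and 3.76, 4.08 and 4.04 in EcN, and fell by 1.00 ± 0.16 (limma, adjusted p = 0.034). FAM221A (transcript cluster 17044315) read 5.70, 6.24 and 6.17 in mock and 5.18, 4.81 and 5.16 in EcN, and fell by 0.99 ± 0.15 (limma, adjusted p = 0.034). In each of these genes the groups were apart by more than the spread of the EcN arrays.

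RNA5SP496 (transcript cluster 16929197) is a 5S ribosomal RNA pseudogene. It read 4.10, 4.08 and 4.38 in mock and 2.99, 2.31 and 2.01 in EcN, and fell by 1.75 ± 0.26 (limma, adjusted p = 0.034). The EcN readings are near the median of all rows, 2.27 to 2.32 per array, so the size of the fall is uncertain, and the gene has many near-identical copies that can share probe signal. Of 131 measured 5S genes and pseudogenes of 447 on the array, it was the only one called, and their median log2 fold change was 0.09.

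**Figure D2:**
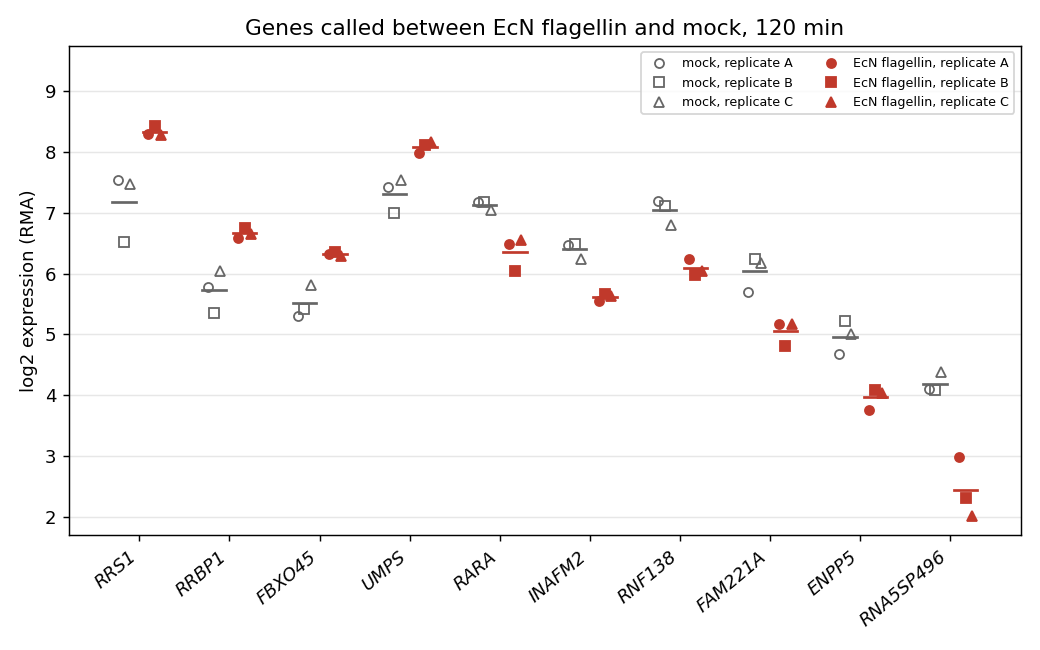
Log2 expression on each array for the 10 genes called between EcN flagellin and mock at 120 min, ordered by fold change, with open grey symbols for mock, filled red symbols for EcN, a symbol shape for each replicate letter and a line at the group mean. No EcN array overlaps a mock array in any of the 10 genes, and mock B is the lowest array of RRS1, UMPS and RRBP1.

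The genes next in order by p missed the threshold narrowly. The cytoplasmic dynein heavy chain DYNC1H1 read 8.45, 8.47 and 8.92 in mock and 9.19, 9.39 and 9.27 in EcN (log2 fold change 0.67 ± 0.12; limma, adjusted p = 0.060). The chromatin remodeller BAZ1B read 8.97, 8.62 and 9.08 in mock and 9.34, 9.46 and 9.45 in EcN (0.53 ± 0.10; limma, adjusted p = 0.060). TACC1, which binds microtubule regulators, differed by 0.52 ± 0.09 (limma, adjusted p = 0.056). Each of these readings was higher on all 3 EcN arrays.

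In the other direction, TAFAZZIN, which remodels the mitochondrial lipid cardiolipin, read 6.20, 6.44 and 6.36 in mock and 5.71, 5.42 and 5.50 in EcN (-0.79 ± 0.14; limma, adjusted p = 0.056). The homeobox gene DLX5 read 5.75, 6.58 and 6.21 in mock and 5.48, 5.29 and 5.13 in EcN (-0.88 ± 0.16; limma, adjusted p = 0.060). UBALD2 read 9.77, 9.76 and 9.36 in mock and 9.02, 9.02 and 9.06 in EcN (-0.60 ± 0.12; limma, adjusted p = 0.060). All 3 EcN arrays were the lower ones for each gene.

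The number of genes called depended on which mock arrays were kept. Without mock A, 38 genes were called (0.236% of those tested), 12 higher and 26 lower, and 8 of the 10 genes remained, with FBXO45 (adjusted p = 0.055) and RARA (0.064) missing. Without mock C, 601 genes (3.73%) were called higher and 576 (3.58%) lower, and all 10 remained. In 93.8% of these 1177 genes mock C lay beyond mock A and B on the EcN side, and in 41.7% within or past the EcN range. Calls without mock C, here and in the lists below, thus follow in part from leaving out the mock array nearest to EcN. Without mock B no gene was called, though 849 reached an unadjusted p under 0.05 upwards and 900 downwards. Nor was any called without EcN B (965 and 1020 at that level), EcN C (1179 and 1107), mock 60 min B (1288 and 1311) or ST 120 min B (1302 and 1319). The count was 1 without EcN A, ST 60 min C or ST 120 min A, and 5 without mock 60 min A, mock 60 min C or EcN 60 min B, arrays that enter through the shared spread in all but the first case. Whether mock C, or mock A and B, stands for the untreated cells was not tested.

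ISG15 and OAS2 belong to the interferon-stimulated genes, the list with the highest median, 0.47, among the pathway lists. Of 34 members measured, 32 were above 0. None was called, against 0.0621% of all genes. An unadjusted p under 0.05 was reached by 16 that were higher and 1 that was lower, against 8.24% and 8.28% of all genes. All 3 EcN arrays lay above mock for 10 members and below mock for 1, against 8.52% and 9.11% of all genes. The 1 lower by unadjusted p was IFITM2, named after its value was seen, at a log2 fold change of -0.41 ± 0.14 (limma, adjusted p = 0.147).

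OAS2, which makes the second messenger that activates RNase L, read 2.62, 3.47 and 2.86 in mock and 4.07, 4.62 and 5.28 in EcN (1.67 ± 0.38; limma, adjusted p = 0.076). ISG15, a ubiquitin-like modifier, read 3.94, 4.15 and 4.28 in mock and 4.53, 6.12 and 5.84 in EcN (1.37 ± 0.41; limma, adjusted p = 0.119). Both had separate groups, and EcN A was the lowest EcN array. RSAD2, an antiviral enzyme named after its values were seen, read 1.70, 2.74 and 2.85 in mock and 3.01, 3.77 and 4.11 in EcN (1.20 ± 0.36; limma, adjusted p = 0.123).

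For other members too, mock A lay below mock B and C. IFI44L read 2.25, 4.84 and 4.83 on mock A, B and C and 4.80, 5.98 and 6.08 in EcN (1.65 ± 0.53; limma, adjusted p = 0.139), and without mock A the difference was 0.79. IFIT3, an antiviral protein that partners IFIT1, named after its values were seen, read 2.12, 4.71 and 5.12 in mock and 4.10, 5.63 and 5.46 in EcN (1.08 ± 0.57; limma, adjusted p = 0.355), and 0.15 without mock A. OAS1, another RNase L pathway enzyme, read 2.15, 2.83 and 3.19 in mock and 2.90, 4.81 and 4.77 in EcN, so that EcN A lay inside the mock range (1.44 ± 0.46; limma, adjusted p = 0.136).

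The mean log2 level of the 34 genes was 4.48, 4.98 and 5.01 on mock A, B and C and 4.95, 5.65 and 5.65 on EcN A, B and C. EcN A was thus at the level of mock B and C. The mock arrays of the earlier time point read 4.595, 4.509 and 4.602, so mock A lay nearer to them than mock B and C did. The list's median was 0.30 without mock A and 0.50 without mock C, 0.74 without EcN A, and 0.25 without mock A and EcN C or without the 5 arrays high in NFKBIA, which are mock A and the C arrays of both flagellins at both times. In the comparison without mock C, 4 members were called, all higher, against 3.73% of all genes: OAS2 (1.61), IFI44L (2.08), RSAD2 (1.41) and IFI35 (1.10), the last named after its value was seen. Among 25 interferon signalling genes and RNA sensors none was called. IFIH1, which senses long double-stranded RNA, read 4.87, 5.26 and 5.37 in mock and 5.62, 5.55 and 5.90 in EcN (0.52 ± 0.13; limma, adjusted p = 0.081), and the list's median was 0.06. The 16 class I antigen presentation genes had a median of 0.05, and none was called.

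The NF-kB programme did not separate EcN from mock, and 1 array of each group was high. NFKBIA (transcript cluster 16791991) read 10.83, 8.39 and 8.22 on mock A, B and C and 8.09, 8.17 and 10.34 on EcN A, B and C. TNFAIP3 (transcript cluster 17012946) read 9.27, 6.50 and 6.27 in mock and 5.99, 6.27 and 9.27 in EcN. CXCL8 read 7.53, 2.46 and 2.26 in mock and 2.67, 2.57 and 7.47 in EcN. The array labelled mock A and the array EcN C were high in all of these, and the other 4 were low. The mean log2 level of 20 NF-kB subunits and feedback inhibitors was 6.86 for mock A and 6.71 for EcN C. The other C arrays given flagellin read 6.35 (EcN, 60 min), 6.63 (ST, 60 min) and 6.93 (ST, 120 min), and the remaining 13 arrays lay between 5.81 and 6.05. The array labelled mock A thus read like the flagellin arrays lettered C in these genes. Over the named rows above the filter, its deviations from the group mean correlated at 0.295 with those of EcN C and 0.370 with those of ST 120 min C, and at -0.236 to -0.147 with those of the A and B arrays of both flagellins at 120 min. Deviations cancel within a group, so the negative correlations follow in part from the positive ones. Whether the label of mock A, or that of mock C, is right was not tested. Each mock A or mock C value here is that of the array so labelled.

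TNF, the prototype inflammatory cytokine, read 6.13, 2.57 and 3.02 in mock and 2.73, 2.86 and 5.69 in EcN. CXCL10, a chemokine that both NF-kB and interferon induce, read 6.65, 3.11 and 3.10 in mock and 2.95, 3.25 and 4.98 in EcN. The differences between group means were small beside their errors, at -0.28 ± 0.85 for NFKBIA, -0.17 ± 1.09 for TNFAIP3, 0.15 ± 1.85 for CXCL8, -0.14 ± 1.02 for TNF and -0.56 ± 1.00 for CXCL10, and limma's adjusted p lay between 0.823 and 0.977. They moved widely when 1 array was left out: without mock A the difference was 0.56 for NFKBIA and 0.80 for TNFAIP3, both then above 0, and 1.88 for CXCL8. IER3, an early NF-kB target, showed the same 2 high arrays, with 9.79 on mock A and 9.49 on EcN C against 6.87 to 7.16 on the others.

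Over 20 measured NF-kB subunits and feedback inhibitors none was called. The mean level was 6.86, 5.93 and 5.87 in mock and 5.81, 5.88 and 6.71 in EcN, and the median log2 fold change was -0.12, 0.16 without mock A and -0.22 without mock C. BCL3, an atypical NF-kB regulator, was lower on all 3 EcN arrays, reading 5.38, 5.65 and 5.15 in mock and 4.64, 4.47 and 5.09 in EcN (-0.66 ± 0.20; limma, adjusted p = 0.131). Over 19 cytokines and chemokines the mean level was 4.68, 3.54 and 3.37 in mock and 3.18, 3.36 and 4.28 in EcN, with a median log2 fold change of -0.27 and 0.05 without mock A. CSF1, the macrophage growth factor, read 5.49, 5.58 and 5.40 in mock and 5.09, 4.94 and 4.83 in EcN (-0.54 ± 0.12; limma, adjusted p = 0.076).

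Of 21 genes of TLR5 and MyD88 signalling none was called, and the median was -0.04. The adaptor MYD88 read 5.02, 4.63 and 4.55 in mock and 4.28, 4.15 and 4.34 in EcN (-0.47 ± 0.13; limma, adjusted p = 0.102). The adaptor TIRAP read 4.69, 4.66 and 4.65 in mock and 4.25, 4.41 and 4.15 in EcN (-0.40 ± 0.16; limma, adjusted p = 0.232). Both were lower on all 3 EcN arrays. PELI1, a ubiquitin ligase of the pathway, overlapped between the groups, at 6.98 to 7.59 in mock and 7.55 to 7.71 in EcN.

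**Figure D3:**
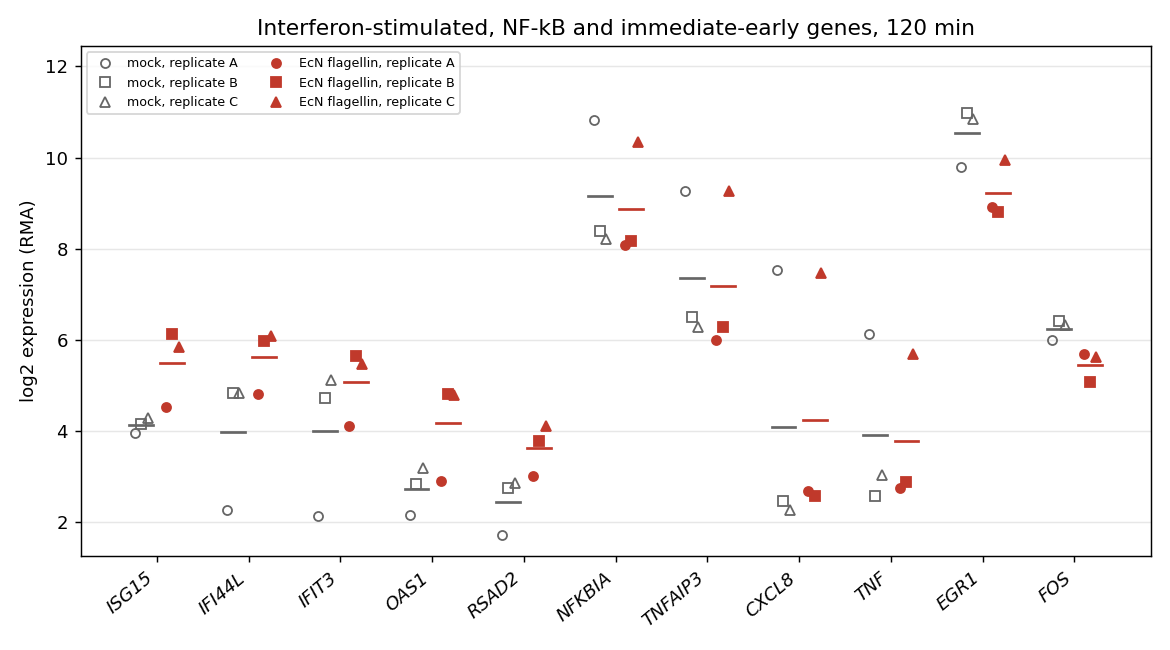
Log2 expression on each array at 120 min for 5 interferon-stimulated, 4 NF-kB and 2 immediate-early genes, with open grey symbols for mock, filled red symbols for EcN, a symbol shape for each replicate letter and a line at the group mean. NFKBIA, TNFAIP3, CXCL8 and TNF are high on mock A and EcN C alone, whereas mock A is the lowest array of all 5 interferon-stimulated genes.

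Immediate-early genes, the transcription factors that respond first to kinase signalling, had the lowest median of the pathway lists shown, -0.31 over 31 genes. The list's mean level was 6.93, 6.84 and 6.74 on mock A, B and C and 6.41, 6.26 and 6.83 in EcN. Mock arrays of the earlier time point read 6.44, 6.44 and 6.36. The mock level was thus higher at the later time, and EcN A and B lay nearer to the earlier mock level. The median therefore does not by itself show a fall from that earlier level. No member was called. At an unadjusted p under 0.05, 8 were lower and 1 higher, against 8.28% and 8.24% of all genes, and for 5 all EcN arrays lay below mock, against 9.11% of all genes. EGR1 read 9.80, 10.99 and 10.84 in mock and 8.92, 8.81 and 9.94 in EcN, where EcN C overlapped mock A (-1.32 ± 0.37; limma, adjusted p = 0.110). FOS read 5.99, 6.42 and 6.31 in mock and 5.68, 5.06 and 5.62 in EcN, all below mock (-0.79 ± 0.38; limma, adjusted p = 0.313). EGR3 read 5.50, 6.53 and 5.70 in mock and 5.03, 4.60 and 5.75 in EcN.

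FOSB, a partner of JUN, differed by -1.18 ± 0.71 (limma, adjusted p = 0.425), with EcN B the lowest array at 5.38 and EcN C at 7.55. ZFP36, which destabilises cytokine mRNA, read 6.38, 5.70 and 5.14 in mock and 3.89, 4.07 and 5.56 in EcN. JUN read 10.15, 9.64 and 9.82 in mock and 9.13, 9.66 and 10.36 in EcN (-0.15 ± 0.31; limma, adjusted p = 0.851). EcN C was the highest EcN array in all of FOSB, ZFP36 and JUN. The 1 member higher at that level was IER5, named after its value was seen, which read 6.36, 6.55 and 7.56 in mock and 7.24, 7.51 and 7.36 in EcN. The list's median was -0.19 without mock A and -0.45 without mock C. Without mock C, IER5 was called higher and ZFP36L1, named after its value was seen, lower, where 3.73% and 3.58% of all genes were called. Without the 5 arrays high in NFKBIA, 0.0621% of all genes were called lower, and among the members EGR1 (-2.05 ± 0.15; limma, adjusted p = 0.00025) and ZFP36 (-1.44 ± 0.20; limma, adjusted p = 0.028) were called lower. That setting was chosen after the data were seen and leaves out mock A and EcN C. For EGR1 these are the lowest mock and the highest EcN array, so its call follows in part from the choice. For ZFP36 and for the list's mean level, EcN C was also the highest EcN array, and mock A the highest mock array. Leaving out EcN C lowers the EcN level of both, so the ZFP36 call and the next count follow in part from it. In that comparison 14 members were lower at an unadjusted p under 0.05, against 6.92% of all genes, and none higher. Without the 6 arrays lettered C, EcN C again among them, 3 members were called, against 0.77% of all genes. The 17 MAP kinase feedback inhibitors had a median of -0.06, with none called.

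The ribosome assembly factors had 1 called member, RRS1, of 83 measured. Their median was 0.09, and 0.17 without mock A and 0.12 without mock C. At an unadjusted p under 0.05, 19 were higher and 3 lower, against 8.24% and 8.28% of all genes. GRWD1, a histone-binding assembly factor, read 8.89, 8.45 and 9.30 in mock and 9.62, 9.57 and 9.56 in EcN (0.70 ± 0.16; limma, adjusted p = 0.076). URB2 read 7.84, 7.15 and 7.71 in mock and 8.21, 7.99 and 8.16 in EcN (0.56 ± 0.15; limma, adjusted p = 0.103). In all of RRS1, GRWD1 and URB2 mock B was the lowest array. The mean of the 83 genes was 7.84, 7.54 and 7.72 in mock and 7.81, 7.77 and 7.86 in EcN, so mock A lay within the EcN range. Without mock C, 8 members were called higher and 1 lower, against 3.73% and 3.58% of all genes.

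The unfolded protein response genes, which restore folding in the endoplasmic reticulum, had a median of 0.00 over 36 members and none called, though 6 reached an unadjusted p under 0.05, all of them higher, against 8.24% of all genes. SEL1L, part of the degradation machinery of that compartment, read 7.35, 6.75 and 7.98 in mock and 7.96, 8.14 and 8.18 in EcN (0.73 ± 0.21; limma, adjusted p = 0.111). The secreted chaperone-like protein gene CRELD2 read 4.78, 4.79 and 4.99 in mock and 5.35, 5.29 and 5.33 in EcN (0.47 ± 0.11; limma, adjusted p = 0.081). Mock C was the highest mock array for both. Of 31 genes of ribosome docking and translocation at the endoplasmic reticulum, RRBP1 was the only one called, an unadjusted p under 0.05 was reached by 4 that were higher and 6 that were lower (8.24% and 8.28% of all genes), and the median was 0.00. Of 50 F-box subunits FBXO45 was the only one called, with a median of 0.06.

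Genes for the protein synthesis and respiratory machinery lay mostly below mock, 32 of 47 ribosomal protein genes and 58 of 81 respiratory chain genes having a log2 fold change under 0. None of 47 cytosolic ribosomal protein genes was called, 15 were lower and 1 higher at an unadjusted p under 0.05 (8.28% and 8.24% of all genes), and the median was -0.13. RPS26, of the small subunit, read 7.04, 6.84 and 6.47 in mock and 6.18, 5.11 and 5.71 in EcN (-1.12 ± 0.25; limma, adjusted p = 0.076). RPL29, of the large subunit, read 7.88, 7.59 and 7.16 in mock and 7.05, 6.57 and 6.99 in EcN. EcN B was the lowest array for both. Ribosomal protein genes have many processed copies, and their probes can share signal.

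None of 81 nuclear-encoded respiratory chain genes was called, but 20 had all 3 EcN arrays below mock and none had all 3 above (9.11% and 8.52% of all genes), with a median of -0.13. COX6B1, a subunit of cytochrome oxidase, read 9.82, 9.44 and 9.34 in mock and 8.75, 8.76 and 8.85 in EcN (-0.74 ± 0.16; limma, adjusted p = 0.074). NDUFA3, of complex I, read 7.84, 7.08 and 6.66 in mock and 6.60, 6.23 and 6.34 in EcN. Without mock C 10 members were called, all lower, against 3.58% of all genes. The cytoskeletal gene ACTB, often used as a reference, read 7.63, 7.95 and 7.43 in mock and 7.17, 6.04 and 7.01 in EcN (-0.93 ± 0.26; limma, adjusted p = 0.106), and GAPDH read 7.84, 7.73 and 7.54 against 7.55, 7.28 and 7.46 (-0.28 ± 0.12; limma, adjusted p = 0.240). Among 10 housekeeping genes measured the median was -0.19.

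Small RNA genes of the nucleolus were also mostly below mock, with 41 of 58 C/D box RNAs and 43 of 69 H/ACA and Cajal body RNAs under 0. Of 58 C/D box RNAs measured of 158 on the array, 16 had all 3 EcN arrays below mock and 3 above (9.11% and 8.52% of all genes), with a median of -0.17, and without the filter on low values the median over all of them was 0.01. Of 69 H/ACA and Cajal body RNAs, 13 were below and 7 above, with a median of -0.13, and the 7 are a share near that of all genes. SNORD13P2, a pseudogene of a C/D box RNA, read 2.35, 2.62 and 2.98 in mock and 3.91, 3.56 and 4.17 in EcN (1.23 ± 0.23; limma, adjusted p = 0.060), higher on all 3 EcN arrays. Of 326 microRNA precursors measured of 1018, none was called and the median was 0.01. These lists were chosen with RNA quality in mind, and their part in the other results was not tested.

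**Figure D4:**
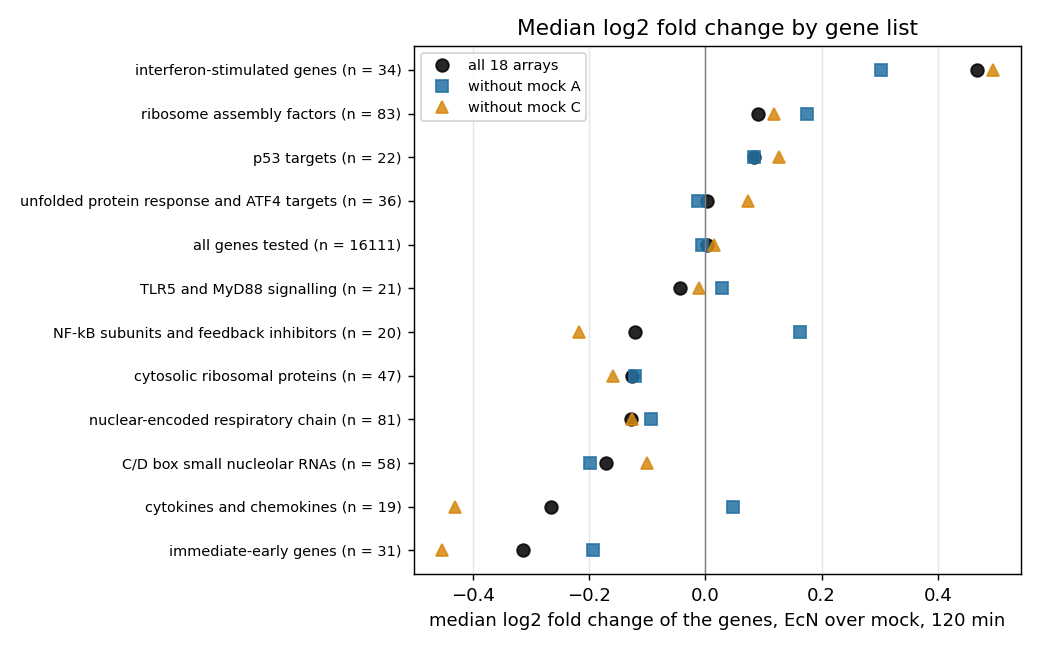
Median log2 fold change of EcN over mock at 120 min for 11 gene lists and for all 16111 genes tested, with a black circle for all 18 arrays, a blue square without mock A and an orange triangle without mock C. In these 3 settings the interferon-stimulated genes lie between 0.30 and 0.50, while the NF-kB and cytokine lists lie above 0 without mock A and below 0 otherwise.

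The direction of a gene moved with its length. Of the genes tested, 13800 protein-coding ones (85.7%) had a genomic length in RefSeq. The 3450 shortest, up to 11.0 kb, had a median log2 fold change of -0.05, and the 3450 longest, above 74.9 kb, of 0.06. All EcN arrays lay above mock for 5.8% of the shortest and 12.6% of the longest genes, and below mock for 13.1% and 4.9%. Across genes, which are not independent replicates, Spearman's rho of length and log2 fold change was 0.19. Without mock A the medians of the same bins were -0.04 and 0.03, and without mock C -0.06 and 0.09. Short genes include those for ribosomal proteins and the respiratory chain, and the long ones DYNC1H1, and the part of length in those results was not tested.

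**Figure D5:**
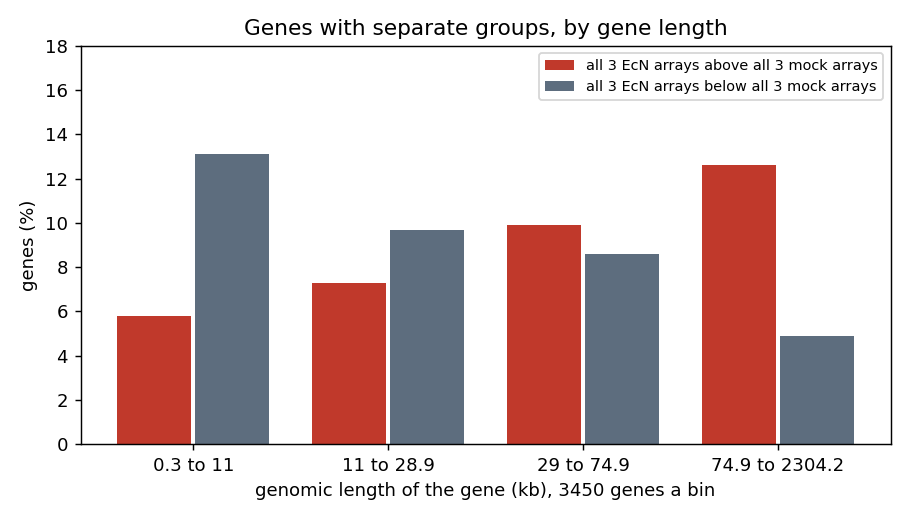
Share of protein-coding genes whose 3 EcN arrays all lie above (red) or all below (grey) the 3 mock arrays, in percent, for 4 bins of genomic length in kb with 3450 genes each. The red bars go from 5.8% in the shortest bin to 12.6% in the longest, and the grey bars from 13.1% to 4.9%.

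Other lists held few genes that stood apart. None of 22 p53 targets was called, with a median of 0.08, and PMAIP1, which promotes apoptosis, read 10.85, 10.94 and 11.34 in mock and 11.46, 11.44 and 11.45 in EcN (0.41 ± 0.12; limma, adjusted p = 0.121). HSP90AB1, a cytosolic chaperone, read 10.00, 9.68 and 9.31 in mock and 9.09, 9.10 and 9.13 in EcN (-0.56 ± 0.18; limma, adjusted p = 0.141), and the 17 heat shock chaperones had a median of -0.06. MVD, of sterol synthesis, read 5.99, 5.87 and 6.23 in mock and 6.75, 6.83 and 6.42 in EcN (0.63 ± 0.14; limma, adjusted p = 0.076), in a list of 26 genes with a median of 0.00. CKS2, a subunit of cell cycle kinases, read 9.49, 9.66 and 9.16 in mock and 8.99, 8.74 and 8.88 in EcN (-0.56 ± 0.15; limma, adjusted p = 0.099), in a list of 54 cell cycle genes with a median of 0.01.

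For the effect of EcN at 60 min, 3 other mock arrays and 3 other EcN arrays were used, and the difference between the times could be tested. No gene passed (0% of those tested; limma), though 958 reached an unadjusted p under 0.05 with a higher effect at 120 min and 978 with a lower one. Without mock 120 min A, 556 genes passed, 222 with a higher and 334 with a lower effect at 120 min, so this count rests on that array. EGR1 read 9.27, 9.04 and 8.89 in mock and 10.78, 10.51 and 11.40 in EcN at 60 min, a log2 fold change of 1.83 against -1.32 at 120 min, and the difference of -3.15 ± 0.53 had an adjusted p of 0.169 (limma). IFI44L read 3.15, 2.81 and 2.65 in mock and 4.96, 6.26 and 5.98 in EcN at 60 min, a log2 fold change of 2.86 against 1.65 at 120 min (limma, adjusted p of the difference 0.534). RRS1 read 7.69, 7.71 and 7.50 in mock and 7.13, 7.18 and 7.49 in EcN at 60 min, a log2 fold change of -0.37 against 1.16.

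ST flagellin was compared with EcN flagellin at 120 min directly. The difference takes no mock level, though the mock arrays enter the spread that the fit shares between groups. No gene passed limma's test (0% of those tested; 9 without mock 120 min A and 34 with array weights), though 854 reached an unadjusted p under 0.05 with ST above EcN and 1028 with ST below. The description fields of the ST arrays name mock, whereas their titles and treatment fields name ST, and the titles were followed. RRS1 read 8.05, 8.31 and 8.02 in ST, a difference of -0.20 from EcN, and ISG15 read 6.27, 7.08 and 6.53, a difference of 1.13. Against the same mock arrays, the log2 fold changes with EcN and with ST were 1.16 and 0.95 for RRS1, 0.77 and 0.61 for UMPS, -0.95 and -0.30 for RNF138, and -0.79 and -0.33 for INAFM2. These pairs of values share the mock arrays and are not independent of each other.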

How the data were processed

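RNA of 18 samples was measured on Human Gene 2.1 ST arrays. The deposited values are log2 expression from RMA in oligo 1.30.0, per the submitters' processing notes, and were used as deposited. No probe or scan files were used, so background and normalization could not be redone, and RMA's quantile step can hide a shift shared by all genes. Rows were named from the platform annotation (1 symbol in 23871, several in 1842, none listed for 27904), and symbols were updated through RefSeq. Rows above their array's median on at least 3 arrays were kept, and the row with the highest mean stood for its gene.

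limma 3.58.1 in R 4.3.3 (lmFit with 6 group means over all 18 arrays, eBayes) gave two-sided p-values, adjusted by Benjamini-Hochberg over 16111 genes, with 12 residual and 4.20 prior degrees of freedom. The fit was tested on simulated data in 5 runs. Named genes were all called genes, the 12 with the smallest p in each direction, the 10 in each direction without mock A or mock C, up to 4 members of each list by size, and 11 fixed genes, unless said otherwise. The members and lists were chosen with earlier results of these data known, so lists are described by counts and medians, with no set test. Alternatives covered filters, normalization, the fit's settings, the replicate block and leaving out arrays.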

Additional observations from a re-analysis of the deposited data

Results flagged for a closer look

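For 5 named genes every EcN array differed from its mock arrays in one direction at 60 min and in the other at 120 min. The log2 fold change at 120 min minus that at 60 min was 1.53 for RRS1 (-0.37 and 1.16), 1.16 for ATG14 (-0.35 and 0.81) and 0.59 for SETD2 (-0.25 and 0.35). It was -1.20 for SNAI1 (0.28 and -0.93) and -2.24 for FOS (1.45 and -0.79). The difference itself was tested with limma, and none passed, with adjusted p from 0.175 to 0.198. No formal test for outlying arrays was run in groups of 3, beyond the array distances and NFKBIA levels described above.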

How the results depend on the processing

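Against 10 genes called, the count was 50 with a stricter filter, 21 after renewed quantile normalization, 214 with limma's trend and robust options, and 0 with only the compared groups in the fit, while 8 to 12 were called with no filter, median centring, the mean of a gene's rows or array weights. Leaving out 1 array gave 0 to 1177. Settings chosen after seeing the data gave 6 without mock A and EcN C, 124 without the 6 arrays lettered C, and 11 without the 5 arrays high in NFKBIA. The 10 genes were all called under the stricter filter, centring, the quantile step, the mean of rows, trend with robust, and without mock C. None was called with the compared groups alone or without mock 60 min B, mock B, EcN B, EcN C or ST 120 min B. Genes with separate groups numbered 2841, from 2841 to 5940 without 1 array, 6828 without mock A and EcN C or without the 5 arrays, and 7677 without the C arrays. Smaller groups separate more often by their size alone, so higher counts with fewer arrays do not show better separation. Leaving out an array of another group cannot change the count. Median centring changed the split of genes with separate groups from 1373 higher and 1468 lower to 1118 and 1749, and the quantile step to 1802 and 1102.

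The difference between times, 0 genes, became 7 with array weights, 264 without mock A and EcN C, 213 without the 5 arrays, and 0 to 556 without 1 array. ST over EcN, 0 genes, became 4 with trend and robust, 34 with array weights, 23 without mock A and EcN C, and 0 to 9 without 1 array.

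The replicate letters do not pair EcN with mock at 120 min: same-letter deviations correlated at -0.175, 0.086 and -0.170. They were above 0 between EcN at 60 and 120 min (0.143, 0.105 and 0.161) and between EcN and ST at 120 min (0.076, 0.174 and 0.308), but not between mock at 60 and 120 min (-0.212, -0.049 and -0.102). With the replicate block 4 genes were called, 3 of the 10 among them, 1 gene for the difference between times and 0 for ST over EcN.

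Signs turned for these log2 fold changes. Without 1 array NFKBIA ran from -1.02 to 0.56, TNFAIP3 from -1.21 to 0.80, CXCL10 from -1.19 to 0.62, CXCL8 from -1.47 to 1.88, TNF from -1.11 to 0.97, IER3 from -1.12 to 0.62, JUN from -0.47 to 0.14, the NF-kB list's median from -0.22 to 0.16 and that of cytokines from -0.48 to 0.047. With array weights TNFAIP3 was 0.089 and TNF 0.25. Without mock A and EcN C, or the 5 arrays, IFIT3 was -0.051 and TNF 0.002. Without the C arrays CXCL8 was -2.38. With no filter the C/D box median was 0.012. For all of these the cause was not tested.

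With 3 arrays per group, 48.4% of 1.5-fold changes were recovered in simulated data with the same spread in every group. Genes near the array median have signal close to background, and their fold changes are uncertain.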
